A study of Macrostomum lignano with 16 samples.

Results

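Newly joined and constantly paired worms of the flatworm Macrostomum lignano were compared across all transcripts of a whole-body RNA sequencing table. The comparison took the 4 libraries labelled joined and the 4 labelled paired, 8 of the 16 libraries of the series. Libraries were assigned by label: both groups had 1 partner on the last day and differed in their social history. Joined worms had lived alone and were put together with 1 other worm for the last 24 h of 64 days, and paired worms had lived with 1 other worm for all 64 days. The other 8 libraries came from isolated worms, kept alone for 64 days, and octet worms, kept 8 together for 64 days, with 4 libraries in each group. All worms were adults of strain DV1, aged 66 to 69 days, fed on diatoms at 20 °C, and no group received any treatment other than its company. Each library was made from a pool of whole worms, so p-values measure the spread between pools. How many worms made a pool is not given in the sources used here.

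Macrostomum lignano is a simultaneous hermaphrodite: every adult carries testes and ovaries and makes sperm and eggs at the same time. Worms mate repeatedly and reciprocally, so each partner both donates and receives sperm. The species is known for adjusting its investment in testes to the number of mates and rivals around it, and a worm without partners can neither give nor receive sperm. The deposited table gives transcript identifiers of an assembly and does not pair them with gene names or sequences, so transcripts are described by identifier, level and pattern, no role is given to any of them, and the tissues could not be checked against marker genes. In whole-worm RNA, fewer cells of a type and less RNA per cell cannot be told apart.

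Joined libraries held 7469250 to 9758050 estimated reads and paired libraries 7392780 to 9744271. At least 1 estimated read was found for 64847 to 65569 transcripts in joined libraries and for 62738 to 65106 in paired libraries. The mean difference was 1586 transcripts (two-sided exact permutation p = 0.0571, or 0.171 adjusted over 3 library measures), where 4 against 4 libraries allow no p below 0.0286. With every library thinned to the same number of reads the difference was 1814 transcripts (exact permutation p = 0.0571). The most abundant transcript took 18.2% ± 3.43 of reads in joined and 17.3% ± 3.04 in paired libraries (SD, n = 4 each; exact permutation p = 0.771). The 100 most abundant transcripts took 37.4% ± 2.14 in joined and 35.9% ± 2.34 in paired libraries (SD, n = 4 each; exact permutation p = 0.371). In a principal component analysis of these 8 libraries, the first component held 34.9% of the variance. Joined libraries scored 6.94 to 54.6 on it and paired libraries -111 to 13.8. Paired replicate 4, at -111, stood apart from the other paired libraries, whose lowest score was -32.7, and paired replicate 2 at 13.8 lay beyond joined replicate 4 at 6.94.

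Of 40265 tested transcripts, 1843 (4.58%) differed in level between newly joined and constantly paired worms (limma-voom, Benjamini-Hochberg adjusted p under 0.05). Joined worms were higher in 534 of them (1.33% of those tested) and lower in 1309 (3.25%). Levels are in CPM, reads scaled to a common library size after correcting for library composition, and fold changes are log2 of joined over paired. Among the called transcripts the median log2 fold change was 0.86 in those higher and -0.79 in those lower in joined worms. Most called differences were under 2-fold, 366 higher and 967 lower. Over 2-fold stood 168 higher and 342 lower transcripts, over 3-fold 23 and 143, over 4-fold 12 and 106, and over 8-fold 4 and 39. The share of higher transcripts was thus 32.9% of those over 2-fold and 10.2% of those over 4-fold. At the 0.01 level 632 transcripts passed, 123 higher and 509 lower. The 4 joined libraries lay wholly above or below the 4 paired libraries in 4868 tested transcripts (12.1%), of which 1693 were called. The count of calls was 930 (224 higher, 706 lower) without joined replicate 1 and 1034 (320 and 714) without joined replicate 3. It was 1047 (225 and 822) when paired replicate 1 was left out and 1046 (246 and 800) when paired replicate 3 was. Without paired replicate 4, the library that stood apart, it was 1485 (389 higher, 1096 lower), and 1211 of these were also called with all libraries. With a quality weight per library the count was 3517.

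**Figure D1:**
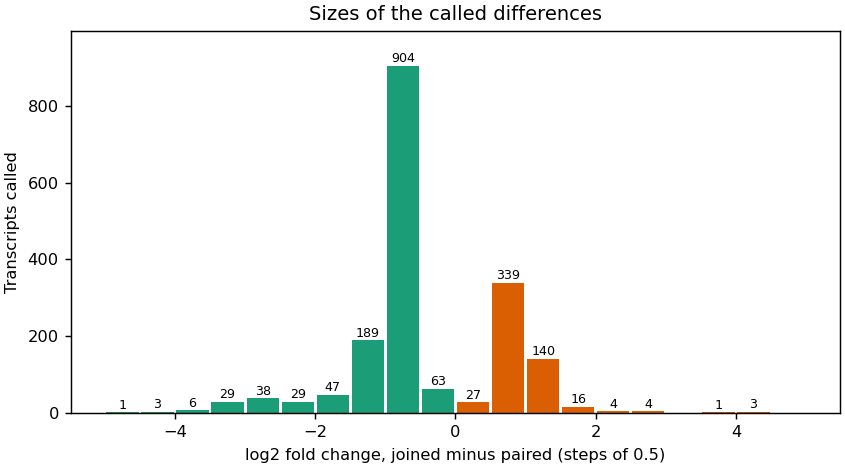
Number of called transcripts (vertical axis) by log2 fold change of joined over paired worms in steps of 0.5 (horizontal axis), with the count above each bar. Of the lower transcripts 904 fall between -1 and -0.5, and a long lower side holds 106 transcripts beyond -2, against 12 beyond 2 on the higher side.

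Higher and lower transcripts differed in where they lay on the scale of abundance. Transcripts were ranked by mean log2 CPM over all 16 libraries and divided into 3 bins. In the most abundant bin of 13422 transcripts, 1319 (9.83%) were called, 280 higher and 1039 lower in joined worms. In the middle bin of 13422, 362 (2.70%) were called, 162 higher and 200 lower. In the least abundant bin of 13421, 162 (1.21%) were called, 92 higher and 70 lower. The median log2 fold change over all transcripts of a bin, called or not, was -0.06 in the most abundant, 0.04 in the middle and 0.10 in the least abundant bin, against 0.02 over all tested transcripts. Precision differed as well, with a median 95% interval of 0.34 to either side in the most abundant and 0.72 in the least abundant bin. Of the 100 most abundant transcripts 26 were called, 6 higher and 20 lower.

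**Figure D2:**
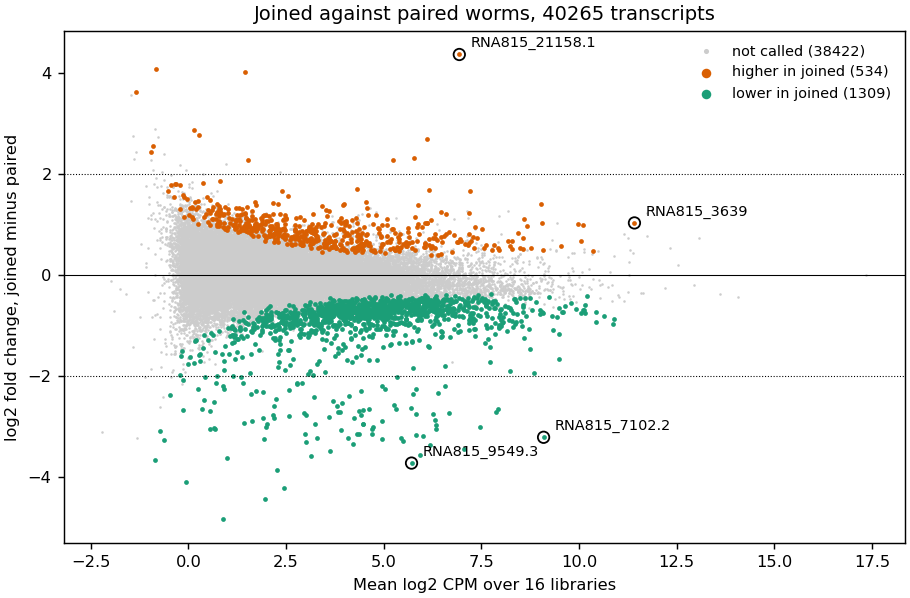
Log2 fold change of joined over paired worms (vertical axis) against mean log2 CPM over 16 libraries (horizontal axis) for 40265 transcripts; colours mark 534 transcripts called higher and 1309 called lower in joined worms, and dotted lines mark 4-fold. The 4 circled transcripts are those named in the text, and the 106 lower by over 4-fold have mean log2 CPM values of -0.86 to 9.09.

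Among transcripts higher in joined worms, RNA815_21158.1 had the largest fold change. It stood at 348, 403, 608 and 806 CPM in joined libraries, against 25.9, 35.6, 27.9 and 14.2 CPM in paired libraries. Every joined library lay far above every paired one. The log2 fold change was 4.36 with a standard error of 0.34 and a 95% interval of 3.66 to 5.07 (limma-voom adjusted p = 7.16e-08). In isolated worms this transcript stood at 450 to 833 CPM and in octet worms at 13.3 to 59.7 CPM, so the joined range overlapped that of worms kept alone throughout and lay far above that of octet worms. RNA815_21158.2 is the only other transcript with that number and was called higher too, with a log2 fold change of 2.69. RNA815_21158.1 made up 73.2% to 76.1% of the CPM of the pair in joined libraries and 38.2% to 56.1% in paired libraries. In isolated libraries its share was 72.8% to 76.2% and in octet libraries 49.7% to 57.5%. Reads that match both transcripts were divided by estimation, so this share is less certain than their sum.

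The largest difference in CPM among higher transcripts was in RNA815_3639. It stood at 4110, 3620, 5610 and 3510 CPM in joined libraries, against 1940, 3170, 3050 and 896 CPM in paired libraries. The groups did not overlap, but paired replicates 2 and 3 came close to joined replicates 2 and 4. The log2 fold change was 1.03 with a standard error of 0.27 and a 95% interval of 0.46 to 1.59 (limma-voom adjusted p = 0.0326). This call was borderline and was lost in 7 of 28 alternatives, the stricter threshold among them. Without paired replicate 4 the log2 fold change fell to 0.64 (adjusted p = 0.0648 in limma-voom), and without joined replicate 3 to 0.88. The call was also lost without joined replicate 1, joined replicate 2 or paired replicate 1. There the log2 fold change hardly moved, at 1.03, 1.09 and 1.01, while the standard error rose to between 0.305 and 0.31. Isolated libraries held 3880 to 5050 CPM and octet libraries 1210 to 2070 CPM.

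**Figure D3:**
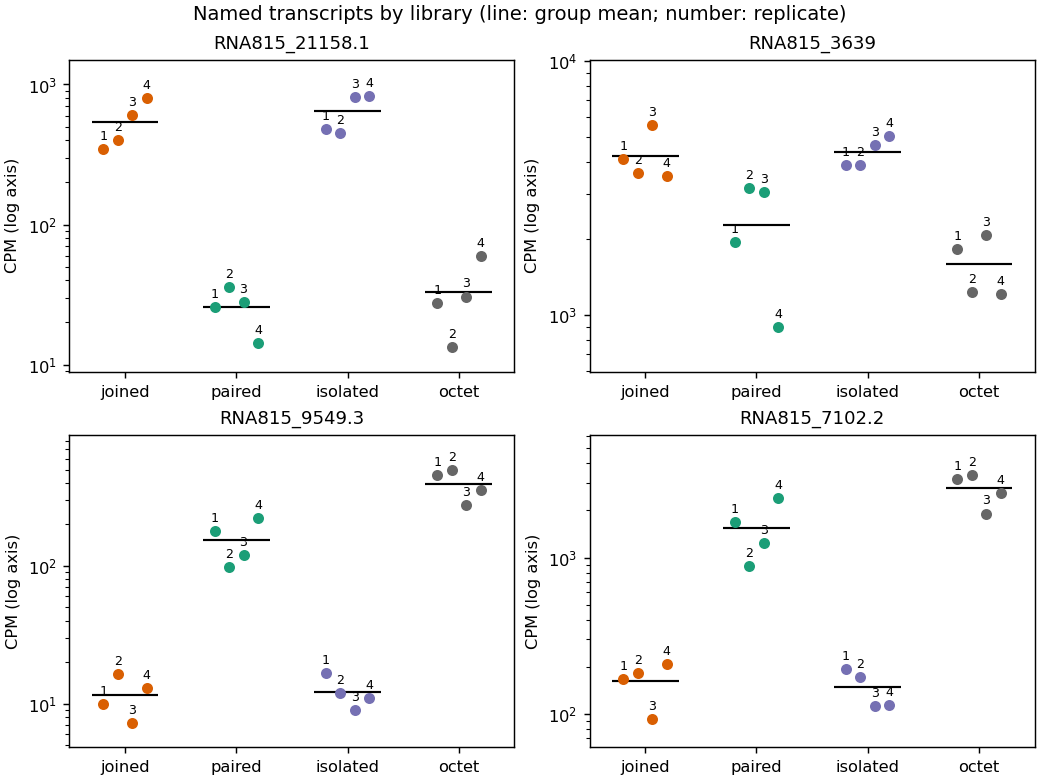
CPM on a log axis (vertical) in each library of the 4 groups (horizontal) for the 4 named transcripts; points are libraries with their replicate number and lines are group means. In all 4 panels the joined libraries sit with the isolated ones, as for RNA815_21158.1 at 348 to 806 and 450 to 833 CPM. Paired means lie toward the octet means. For RNA815_3639, paired replicates 2 and 3 at 3170 and 3050 CPM lie nearer the lowest isolated library than the highest octet library.

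Among transcripts lower in joined worms, RNA815_9549.3 had the largest fold change under the naming rule. It stood at 10.0, 16.3, 7.27 and 12.9 CPM in joined libraries, against 180, 98.7, 119 and 221 CPM in paired libraries. All joined libraries were far below all paired ones. The log2 fold change was -3.73 with a standard error of 0.27 and a 95% interval of -4.28 to -3.17 (limma-voom adjusted p = 6.88e-08). Isolated libraries held 8.92 to 16.7 CPM and octet libraries 276 to 496 CPM. Of 6 transcripts with the number RNA815_9549, 5 were tested and all 5 were called lower, with log2 fold changes of -4.22 to -2.73.

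RNA815_7102.2 had the largest difference in CPM among lower transcripts. It stood at 168, 184, 92.7 and 209 CPM in joined libraries, against 1690, 883, 1230 and 2410 CPM in paired libraries. The groups were wide apart, with joined replicate 3 the lowest of its group and paired replicate 4 the highest of its own. The log2 fold change was -3.22 with a standard error of 0.27 and a 95% interval of -3.78 to -2.66 (limma-voom adjusted p = 1.62e-07). Isolated libraries held 112 to 195 CPM and octet libraries 1910 to 3370 CPM. All 4 transcripts with the number RNA815_7102 were called lower, with log2 fold changes of -3.22 to -1.15. RNA815_21158.1, RNA815_9549.3 and RNA815_7102.2 kept their calls in all 28 alternatives.

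The 106 transcripts lower by over 4-fold carried 81 different numbers and had mean log2 CPM values of -0.86 to 9.09. Their median CPM was 3.86, 4.95, 2.46 and 6.60 in joined libraries, against 30.1, 19.9, 26.7 and 46.8 in paired libraries. In isolated libraries it was 2.2 to 4.20 and in octet libraries 40.8 to 81.7. Octet worms had a higher mean than paired worms in 100 of the 106, and the median ratio of paired over octet means was 0.531. These transcripts also ranked the pools within each group in much the same order. They were chosen on these same libraries, which can favour transcripts where an outlying library adds to the group difference. The shares over all tested transcripts, which were not chosen so, cannot show how much of the order that choice gave. Within the paired group, replicate 4 was the highest library in 84 of 106 (79.2%) and replicate 2 the lowest in 91 (85.8%). Over all tested transcripts those shares were 36.9% and 29.0%. Within the joined group, replicate 3 was the lowest library in 89 of 106 (84.0%), against 24.5% of all tested transcripts, and replicate 4 the highest in 62 (58.5%), against 27.6%. The transcripts of a list share their libraries, and some share a number, so these shares are descriptions. The count over 4-fold was 106 without paired replicate 4 and 86 without joined replicate 3, but 63 with limma-trend and a pseudocount of 2.

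The 12 transcripts higher by over 4-fold carried 10 numbers, and 4 of them reached a mean log2 CPM of 3. Their number was 5 under limma-trend with a pseudocount of 2 and 83 without a filter. Their median CPM was 3.55 to 7.51 in joined libraries and 0.375 to 1.44 in paired libraries. In isolated libraries it was 4.52 to 9.73 and in octet libraries 0.282 to 0.728. Scarce transcripts also made up the cases found in every joined and no paired library, or the reverse. Isolated and octet libraries were not considered here, and many of these transcripts had reads in them. Of all 76437 transcripts, 83 had no estimated read in any paired library and at least 1 in every joined library. Another 25 had none in any joined library and at least 1 in every paired library. None of these 108 was abundant enough to be tested, and 1 of them reached 3 reads in every library of its group. With at least 1 read in any joined library and none in paired ones there were 2136 transcripts, and 1289 in the reverse case. Joined libraries also held more detected transcripts, by a mean of 1586. Whether 83 against 25 goes beyond that was not tested.

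The called transcripts took up a different share of each library. Those lower in joined worms held 5.79%, 6.34%, 6.08% and 6.42% of all reads in joined libraries, against 10.5%, 9.93%, 10.9% and 11.4% in paired libraries. Isolated libraries gave them 6.59% to 7.23% and octet libraries 13.6% to 14.5%. Those higher in joined worms held 3.63%, 3.72%, 4.24% and 3.89% in joined libraries, against 2.03%, 2.5%, 2.28% and 1.66% in paired libraries. Isolated libraries gave them 3.15% to 3.81% and octet libraries 1.47% to 1.75%. The joined and paired values describe lists chosen on those libraries, while the isolated and octet values entered the choice only through the shared filter, scaling and estimate of spread. Paired libraries lay between isolated and octet libraries in both lists, apart from paired replicate 4, which at 1.66% of reads in the higher list fell within the octet range.

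**Figure D4:**
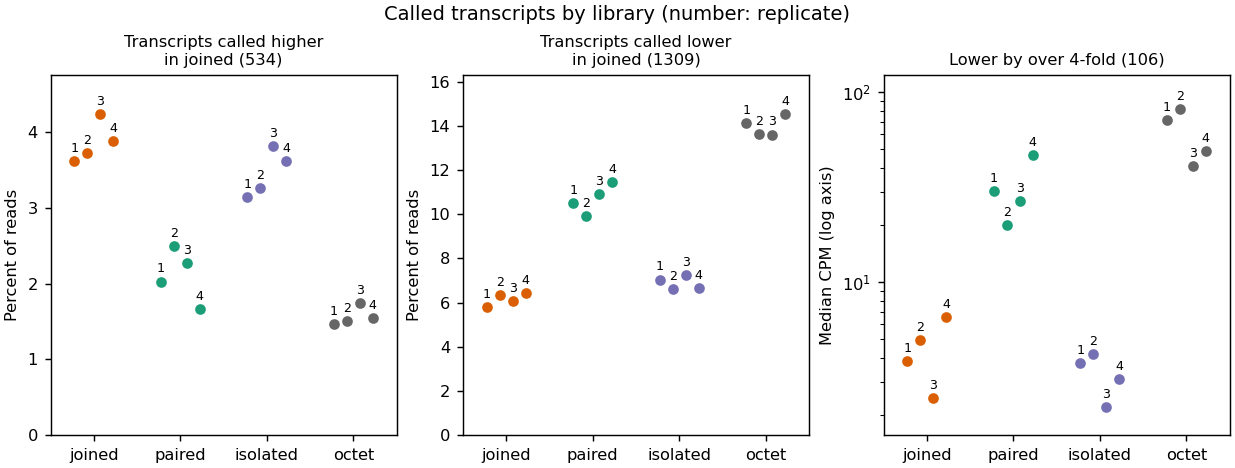
Percent of reads in transcripts called higher (left) and lower (middle) in joined worms, and median CPM on a log axis of the 106 transcripts lower by over 4-fold (right), for each library of the 4 groups on the horizontal axis; points are libraries with their replicate number. Joined libraries sit beside isolated ones, with 5.79% to 6.42% and 6.59% to 7.23% of reads in the lower list, and paired libraries hold 9.93% to 11.4%. Paired replicate 4 lies within the octet range in the left panel at 1.66% and in the right panel at 46.8 CPM.

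Isolated and octet worms gave a second contrast of less with more lasting company, on 8 libraries that share no pool with joined or paired worms but were fitted together with them. There 8640 transcripts (21.5% of those tested) were called, 3483 higher (8.65%) and 5157 lower (12.8%) in isolated worms (limma-voom). Of the 534 transcripts higher in joined worms, 408 (76.4%) were called higher in isolated than in octet worms, and 0 were called lower. Of the 1309 lower in joined worms, 1219 (93.1%) were called lower in isolated than in octet worms, and 0 were called higher. The 1627 shared calls were 88.3% of the calls between joined and paired worms and 18.8% of those between isolated and octet worms. The shared calls numbered 865 without joined replicate 1, 940 without joined replicate 3. They numbered 990 when paired replicate 1 was left out and 979 when paired replicate 3 was. In each of these fits, and in every other alternative that held all 4 groups, 0 transcripts were called in opposite directions.

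Read from the other side, the 3483 transcripts higher in isolated than in octet worms had a median log2 fold change of 0.43 in joined over paired worms. The 5157 lower ones had a median of -0.48, and all tested transcripts one of 0.02. A positive joined over paired fold change was found in 96.7% of the first list and 51.7% of all transcripts, and a negative one in 97.8% of the second list and 48.3% of all transcripts. The same lists differed by a median of 0.90 and -0.83 between isolated and octet worms, values on which they were chosen. The transcripts lower by over 4-fold in joined worms had a median log2 fold change of -2.79 there and of -4.00 in isolated over octet worms. Across 40265 transcripts the 2 sets of fold changes had a Pearson r of 0.73, where transcripts are not independent and all libraries were scaled together.

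**Figure D5:**
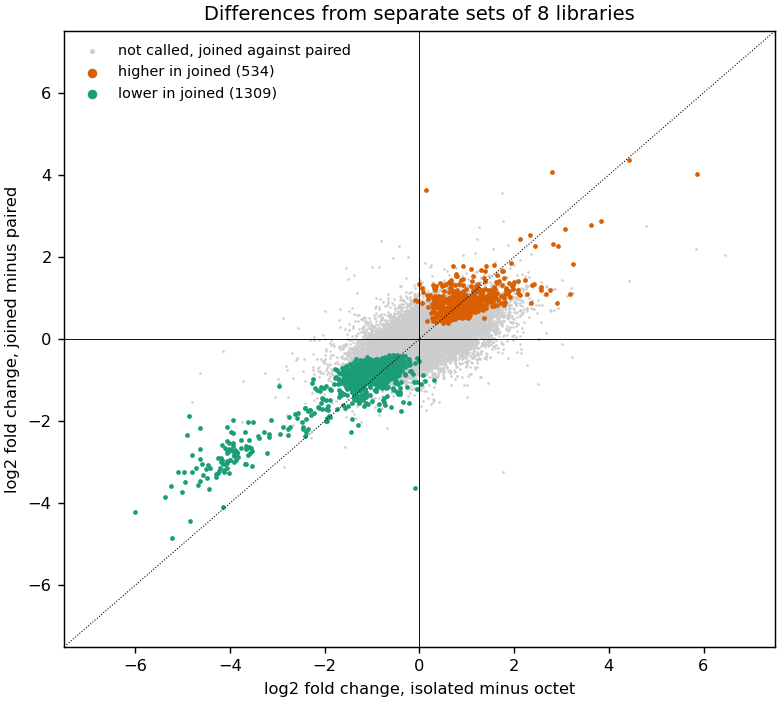
Log2 fold change of joined over paired worms (vertical axis) against that of isolated over octet worms (horizontal axis) for 40265 transcripts, with equality as a dotted line; colours mark the 534 transcripts called higher and 1309 called lower in joined worms. The called transcripts lie in the 2 quadrants of equal sign apart from 3 higher and 4 lower ones, and 103 of the 106 lower by over 4-fold lie nearer 0 on the vertical than on the horizontal axis. With equal sign on both axes, so do 975 of the 1309 lower, 326 of the 534 higher and 22267 of all 40265 transcripts.

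The difference between both contrasts was tested for each transcript in the same limma-voom fit, a test added after the data were seen. It called 2 transcripts (0.00497%), with 2123 at an unadjusted p under 0.05. RNA815_34533.2 differed by 0.70 between joined and paired worms and by 2.84 between isolated and octet worms (limma-voom adjusted p = 0.0197 for the difference). RNA815_32394 differed by 0.88 and 2.90 (limma-voom adjusted p = 0.0308). Both were farther from 0 between isolated and octet worms. These calls were easily lost when single libraries of any group were left out. The count was 0 without joined replicate 1, paired replicate 1, paired replicate 3, isolated replicate 3, isolated replicate 4 or octet replicate 3. It was 1 without joined replicate 3, isolated replicate 1 or octet replicate 2, and 3 without paired replicate 2 or paired replicate 4. Of the 216 transcripts called between joined and paired worms and not between isolated and octet worms, 126 were higher and 90 lower in joined worms, and 209 had the same sign in both contrasts. None of these 216 passed the test of the difference, where the smallest limma-voom adjusted p among them was 0.128. This does not show that they behaved alike in both contrasts, since the test carries the error of both. The 2 transcripts it called had differences between the contrasts of -2.14 and -2.01, with standard errors of 0.307 and 0.311. Smaller differences could have been missed.

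Only 3 transcripts called at over 4-fold were not called between isolated and octet worms, and they are named here after their values were seen. RNA815_52.2 had 7.5 to 12.9 estimated reads in joined libraries, against 0 in 3 paired libraries and 3.6 in paired replicate 4. RNA815_16601.1 had 0 in joined replicates 1 and 3, 14.0 in replicate 2 and 10.1 in replicate 4, against 12.6 to 50.2 estimated reads in paired libraries. RNA815_39030 had 1 to 4 estimated reads in joined libraries, against 8 to 20 in paired libraries. All 3 were scarce. The fitted fold changes of the first 2 depend on the pseudocount because some libraries were at 0. Smaller differences without a call between isolated and octet worms were not all in scarce transcripts. RNA815_10216, also named after its values were seen, averaged 25.6 CPM in joined, 51.4 in paired, 29.9 in isolated and 27.5 in octet worms. Its log2 fold change was -1.02 (limma-voom adjusted p = 0.000116), against 0.11 in isolated over octet worms (limma-voom adjusted p = 0.605). It did not pass the test of the difference between both contrasts, which does not show that it behaved alike in them.

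Some called transcripts share a number. Numbers with at least 2 tested transcripts held 23.5% of the tested and 32.7% of the called transcripts. Of these 4230 numbers 414 held a call, and 136 of them held at least 2. In those 136, all calls were higher in 39, all lower in 94 and in both directions in 3. The 3 were named after their values were seen. In RNA815_10311, transcript RNA815_10311.1 averaged 39.7 CPM in joined and 22.6 CPM in paired worms, while RNA815_10311.2 averaged 100.1 CPM in joined and 334 CPM in paired worms. Their log2 fold changes were 0.84 and -1.73 (limma-voom adjusted p = 0.00302 and 7.16e-08). In RNA815_3120 the log2 fold changes of the 2 called transcripts, RNA815_3120.7 and RNA815_3120.1, were 1.06 and -0.52 (limma-voom adjusted p = 0.0399 and 0.0386). RNA815_3120.7 averaged only 3.66 CPM in joined and 1.75 CPM in paired worms. In RNA815_3636, for RNA815_3636.2 and RNA815_3636.1, they were 1.55 and -0.53 (limma-voom adjusted p = 0.0278 and 0.0315). Joined and paired libraries overlapped in both transcripts of RNA815_3636. Opposite changes within a number may depend on how reads were divided between similar transcripts, which was not tested.

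For most transcripts the data bounded the difference without showing one. The 95% interval of the fold change lay within 2-fold in either direction for 28401 transcripts (70.5%), of which 524 were called, and within 1.5-fold for 9955 (24.7%), of which none was called. It lay wholly beyond 2-fold for 153 transcripts (0.380%). Another 604 transcripts had a fold change over 2-fold and were not called, 391 of them higher and 213 lower in joined worms. The spread between pools was somewhat smaller in joined than in paired worms, with a median SD of 0.28 against 0.33 log2 CPM. The joined SD was the larger one in 39.2% of transcripts. Isolated and octet worms had medians of 0.303 and 0.311. Paired replicate 4 was the highest paired library in 36.9% of tested transcripts and the lowest in 33.1%. For paired replicate 2 these shares were 28% and 29%. How far the paired spread leans on either library was not tested.

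Isolated worms allow each side of the comparison to be placed against life without company, though these contrasts share libraries with it. Against isolated worms, 728 transcripts (1.81%) were called in paired worms and 0 (0%) in joined worms, the second with 2371 (5.89%) at an unadjusted p under 0.05 (limma-voom). Limma-trend gave 0 calls for joined worms there too, and 2312 transcripts had an unadjusted p under 0.05 in it. The 534 transcripts higher in joined than in paired worms had a median log2 fold change of -0.58 in paired over isolated worms and 0.22 in joined over isolated worms. The 1309 lower ones had medians of 0.55 in paired over isolated worms and -0.23 in joined over isolated worms. For the 106 lower by over 4-fold the medians were 3.05 in paired over isolated worms and 0.17 in joined over isolated worms. Since the lists were chosen on the joined and paired libraries, the medians of paired over isolated worms are partly built in. So are medians of joined over isolated worms that lean away from the paired side.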

How the data were processed

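Whole-worm pools were sequenced as single reads of 100 bp. Reads were handled with Bowtie 0.12.7 and RSEM 1.1.19, per the submitters' processing notes, on assembly MLRNA110815, per the file headers. The deposited values are estimated counts per transcript, not scaled for depth and other than whole numbers in 23.8% of cells. RSEM divides reads shared by similar transcripts. A check of units did not accept the decimal commas, so no count model such as a negative binomial fit was used. Columns were matched to libraries by the headers in the labels.

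Estimated counts were rounded. Transcripts with 1.26 CPM (10 reads in the median library) in at least 4 libraries and a sum of at least 15 were kept, 40265 of 76437, holding 98.8% to 99.2% of reads. Library sizes were scaled by TMM (trims of 30% and 5%). Limma-voom (limma 3.58.1, R 4.3.3, pseudocount 0.5) was fitted to all 16 libraries with 4 groups and 12 residual degrees of freedom, and tested on simulated data. P-values are two-sided, adjusted over all 40265 transcripts, with a threshold of 0.05. Fold changes of scarce transcripts depend on the pseudocount, more so where some libraries are at 0.

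Identifiers were named by a rule: in each direction, the largest fold change and the largest CPM difference of another number, among called transcripts whose groups did not overlap and whose mean log2 CPM reached 3. The comparison, rule and lists were chosen with earlier results of these data known. Alternatives changed scaling, filter, rounding, test, weights, block, threshold and libraries. Checks of sequence content and the planned gene lists were not made, since identifiers could not be matched to names.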

Additional observations from a re-analysis of the deposited data

Results flagged for a closer look

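In groups of 4 libraries, a library was set apart when its gap to the nearest other exceeded the share of the whole range given by Dixon's 95% critical value. Of 52 such groups 2 were marked, where chance marks about 1 in 20. Joined replicate 4 had 64847 detected transcripts, fewer than the other joined libraries, which held 65511 to 65569, and it also had the fewest reads of its group. Octet replicate 1 had 10112451 estimated reads, more than the other octet libraries, which held 7717578 to 7871891.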

How the results depend on the processing

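A quality weight per library raised the calls between joined and paired worms to 3517 (1300 higher, 2217 lower), of which 2814 were called the same way between isolated and octet worms. It gave 24 higher transcripts over 4-fold and 5 calls for the difference of both contrasts. With the replicate number as a block the counts were 2963 (1046 higher) and 2588 shared, with 23 higher over 4-fold and 6 calls for the difference. The numbers were not taken to pair the samples in the main fit. Deviations of same-numbered joined and paired libraries correlated at 0.10, 0.07, 0.23 and 0.39, and those of different numbers at -0.334 to 0.149. Joined replicates 2, 3 and 4 correlated best with their own number but joined replicate 1 with paired replicate 2, at 0.13. The headers count the libraries through octet, paired, joined and isolated within each replicate number. Whether that order marks a shared batch was not tested. At the 0.01 level there were 632 calls (123 higher, 509 lower), 590 shared calls and 0 for the difference. Without a filter 353 were higher, 83 of them over 4-fold, and 1 passed for the difference. Limma-trend with a pseudocount of 2 left 5 higher and 63 lower over 4-fold; it changes the test and the pseudocount together. Summing transcripts of 1 number left 0 calls for the difference.

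With each library left out in turn, the calls ranged from 930 to 2391 (224 to 718 higher, 706 to 1789 lower), the shared calls from 865 to 2120 and the calls for the difference from 0 to 3. Over 4-fold there were 10 to 14 higher and 86 to 117 lower transcripts. The median of transcripts higher in isolated than in octet worms ranged from 0.33 to 0.50 and that of the lower ones from -0.52 to -0.40. The difference in detected transcripts ranged from 1237 to 2026 (exact permutation p = 0.0286 without paired replicate 1), that in the share of the most abundant transcript from -0.231 to 2.46 percentage points (-0.231 without joined replicate 1, -0.159 without paired replicate 2), and that of the 100 most abundant from 0.523 to 2.31, with -0.445 for the 1000 most abundant. The cause of these changes was not tested. Counts under median-of-ratios and upper-quartile scaling, a stricter filter, unrounded values and removal of the most abundant transcript stayed within 1.5 times the main ones. No scaling moved the median of all transcripts by more than 0.042. Upper-quartile scaling gave 658 higher and 1044 lower transcripts, 38.7% higher against 29% in the main fit. It moved the median of the most abundant bin from -0.063 to -0.021. Limma-trend moved that of the least abundant bin from 0.099 to 0.045. A fit to the 8 joined and paired libraries called 1337 and holds no isolated or octet value. The median 95% interval reached 0.72 to either side in the least abundant bin of transcripts and 0.34 in the most abundant.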
